A study of Mus musculus with 6 samples.

Results

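The genes of the proteins joined in the MLL-AF9 oncoprotein, Kmt2a (MLL) and Mllt3 (AF9), were examined with 8 cofactor genes in sorted mouse leukaemic blasts. The 10 genes were Kmt2a, Mllt3, Mllt1, Mllt10, Dot1l, Men1, Psip1, Aff1, Aff4 and Cdk9. They were named by role, as members of the MLL, DOT1L and super elongation complexes, and matched by mouse Entrez gene ID. All 10 were found among the 24454 gene IDs of the deposited table. RNA sequencing had been performed on 3 Stat3β TG and 3 WT libraries, in a study of Stat3β, the isoform of STAT3 with a truncated C-terminus, in acute myeloid leukaemia. Stat3β TG blasts came from C57BL/6 fetal liver cells carrying Mx1-Cre and a Stat3β transgene, and WT blasts from wild-type C57BL/6 littermates, for which the labels name no Cre. Cells of both groups had been transformed with an MLL-AF9 retrovirus and transplanted into NSG mice. Recipients received polyinosine-polycytidine, which switches on Mx1-Cre, at 4 weeks, and bone marrow blasts were sorted for MLL-AF9 at 6 weeks, by a Venus reporter per the series' design text. NSG hosts lack T, B and NK lymphocytes of their own but keep myeloid cells. The labels do not say whether replicates of a group came from separate animals.

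MLL is a histone methyltransferase that marks active promoters and is recruited to chromatin with menin and LEDGF. In MLL-AF9 its catalytic part is replaced by the C-terminal end of AF9, which binds DOT1L, the H3K79 methyltransferase, and the AF4-family proteins of the super elongation complex. That complex carries the kinase CDK9, which releases paused RNA polymerase II. Through these partners the fusion keeps genes such as the HOXA cluster and Meis1 active in leukaemic blasts.

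Values are the authors' normalized counts per gene. The libraries held between 21809788 and 51934498 reads. Stat3, whose value sums the full-length form and Stat3β, averaged 9670 ± 1555 in Stat3β TG and 11683 ± 4086 in WT (SD, n = 3 each; limma, adjusted p = 0.771), so it gives no check of the transgene. WT 2 and WT 3 stood apart from the other libraries on the first principal component of all genes tested, at 64.4 and 49.7, against -31.4, -16.3 and -28.2 in Stat3β TG and -38.3 in WT 1. That component held 47.4% of the variance. On the second component, with 19.9%, WT 2 and WT 3 lay at opposite ends, at -40.7 and 48.2, so they were not alike. Xist was at 19.1 to 71.6 normalized counts in Stat3β TG and at 42699, 835 and 45196 in WT 1, WT 2 and WT 3. The Y-linked gene Ddx3y was at 3163, 3146 and 2943 in Stat3β TG 1 to 3, against 23.9, 4959 and 29.6 in WT 1 to 3, and Eif2s3y, Kdm5d and Uty were likewise low in WT 1 and WT 3 alone. The Stat3β TG libraries and WT 2 thus had the pattern of male cells and WT 1 and WT 3 that of female cells. The WT libraries therefore came from more than 1 donor, while for the Stat3β TG libraries this cannot be read from these genes. Because WT 2 was the only WT library of the male pattern, sex and group cannot be fully told apart. All 10 markers of myeloid leukaemic blasts, among them Kit, Itgam and Hoxa9, passed the filter on low values, and their summed level was 112567 to 147010 in Stat3β TG and 78579 to 142731 in WT. T cell markers summed to 78.8 to 137 normalized counts in Stat3β TG and to 31.0 to 138 in WT, and 1 of them, Cd3e, was at 0 in all 6 libraries. The 5 NK cell markers, all higher on average in Stat3β TG, summed to 238 to 484 in Stat3β TG and to 14.1 to 371 in WT. The 6 B cell markers, mostly Cd79b, summed to 1211 to 2072 in Stat3β TG and to 1233 to 1803 in WT. The 9 markers of mature neutrophils were all higher on average in Stat3β TG. They summed to 355024 to 497822 normalized counts in Stat3β TG and to 91980 to 350146 in WT, with the lowest sum in WT 2. Without Ngp, the most abundant of them, the sums were 256225 to 350463 in Stat3β TG and 52343 to 258844 in WT, which overlapped. The 7 markers of eosinophils, basophils and mast cells summed to 5174 to 9186 in Stat3β TG and to 10249 to 40158 in WT. That sum was mostly Prg2, a granule protein of eosinophils, except in Stat3β TG 3, where Prg2 was at 4024 and the other 6 genes summed to 4354. Without Prg2 the sum was 1080 to 4354 in Stat3β TG and 1874 to 3265 in WT. The 6 erythroid markers, mostly Tfrc, summed to 3767 to 4605 in Stat3β TG and to 4643 to 5831 in WT. Without Tfrc the sums were 56.9 to 137 in Stat3β TG and 53.5 to 276 in WT. The 9 monocyte and macrophage markers summed to 53395 to 105113 in Stat3β TG and to 48281 to 60542 in WT. Sums of megakaryocyte markers and of stroma and endothelium markers overlapped between the groups. The part of these cell type and library differences in the values below was not tested. In bulk RNA, fewer cells of a type and less RNA per cell cannot be told apart.

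The promoters of the mouse genes Kmt2a and Mllt3 are shown because the values of these genes varied together over the libraries (below). The CXXC domain of MLL also binds unmethylated CpG dinucleotides. Those values may hold reads of the fusion (below). Each window runs from 250 bases before to 50 bases after an annotated start (RefSeq, GRCm38.p6), 5′ to 3′ on the gene's strand, and capitals mark CpG. The Kmt2a window, chr9:44881240-44881539 on the minus strand, holds 36 CpG. The upstream Mllt3 window, chr4:88033358-88033657 on the minus strand, holds 29, and a downstream start of Mllt3, chr4:87806274-87806573, holds 4, against a median of 7 over 32851 promoter windows.
Kmt2a: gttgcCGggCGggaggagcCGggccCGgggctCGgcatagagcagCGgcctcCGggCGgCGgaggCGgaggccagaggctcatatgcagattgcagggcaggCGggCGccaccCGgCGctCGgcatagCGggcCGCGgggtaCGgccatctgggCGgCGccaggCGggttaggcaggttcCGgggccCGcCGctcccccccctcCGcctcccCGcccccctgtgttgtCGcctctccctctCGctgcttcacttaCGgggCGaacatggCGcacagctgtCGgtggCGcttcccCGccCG
Mllt3 upstream start: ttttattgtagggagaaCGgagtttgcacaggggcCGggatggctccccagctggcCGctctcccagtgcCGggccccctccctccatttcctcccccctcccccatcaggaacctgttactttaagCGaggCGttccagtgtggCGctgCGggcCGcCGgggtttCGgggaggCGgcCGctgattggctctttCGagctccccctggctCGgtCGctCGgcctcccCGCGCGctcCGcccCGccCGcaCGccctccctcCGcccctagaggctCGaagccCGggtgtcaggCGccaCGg
Mllt3 downstream start: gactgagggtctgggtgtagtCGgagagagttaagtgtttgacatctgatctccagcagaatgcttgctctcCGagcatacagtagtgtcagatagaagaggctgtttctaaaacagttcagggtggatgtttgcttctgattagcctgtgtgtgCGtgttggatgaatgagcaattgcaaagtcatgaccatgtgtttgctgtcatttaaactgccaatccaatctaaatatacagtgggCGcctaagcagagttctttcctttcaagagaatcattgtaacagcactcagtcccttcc
The letters TTCNNNGAA, the spacing to which STAT proteins bind, and the stricter TTCCNGGAA were searched on both strands of the 15 windows that the table gives for 9 of the 10 genes (Psip1 has none there). Neither was found, while TTCNNNGAA occurs in 8.30% and TTCCNGGAA in 1.15% of all windows. The stricter motif is contained in the looser one, and these counts describe only the letters of these windows.

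None of the 10 genes differed between Stat3β TG and WT past the test. The test was limma on log2(normalized count + 1), two-sided, with Benjamini-Hochberg adjustment over the 12642 genes that had at least 10 normalized counts in at least 3 libraries. Its log2 fold changes are differences of mean log2 values, Stat3β TG minus WT. All 10 genes passed that filter in both groups. At an adjusted p under 0.05 the test passed 0 of the 10 genes and 0% of all genes tested, and edgeR and DESeq2 on recovered reads passed 0 of the 10, against 0% and 0.134% of all genes. At an unadjusted p under 0.05 it passed 0 of the 10, against 6.1% of all genes. At that level edgeR and DESeq2 also gave 0 of the 10, against 6.17% and 7.67%. The groups overlapped in each of the 10 genes, whereas they did not overlap in 10.8% of all genes. The median log2 fold change was 0.005 over the 10 genes and 0.01 over all genes tested, with 5 of the 10 above 0 and 5 below, against 51.4% and 48.6% of all genes.

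**Figure D1:**
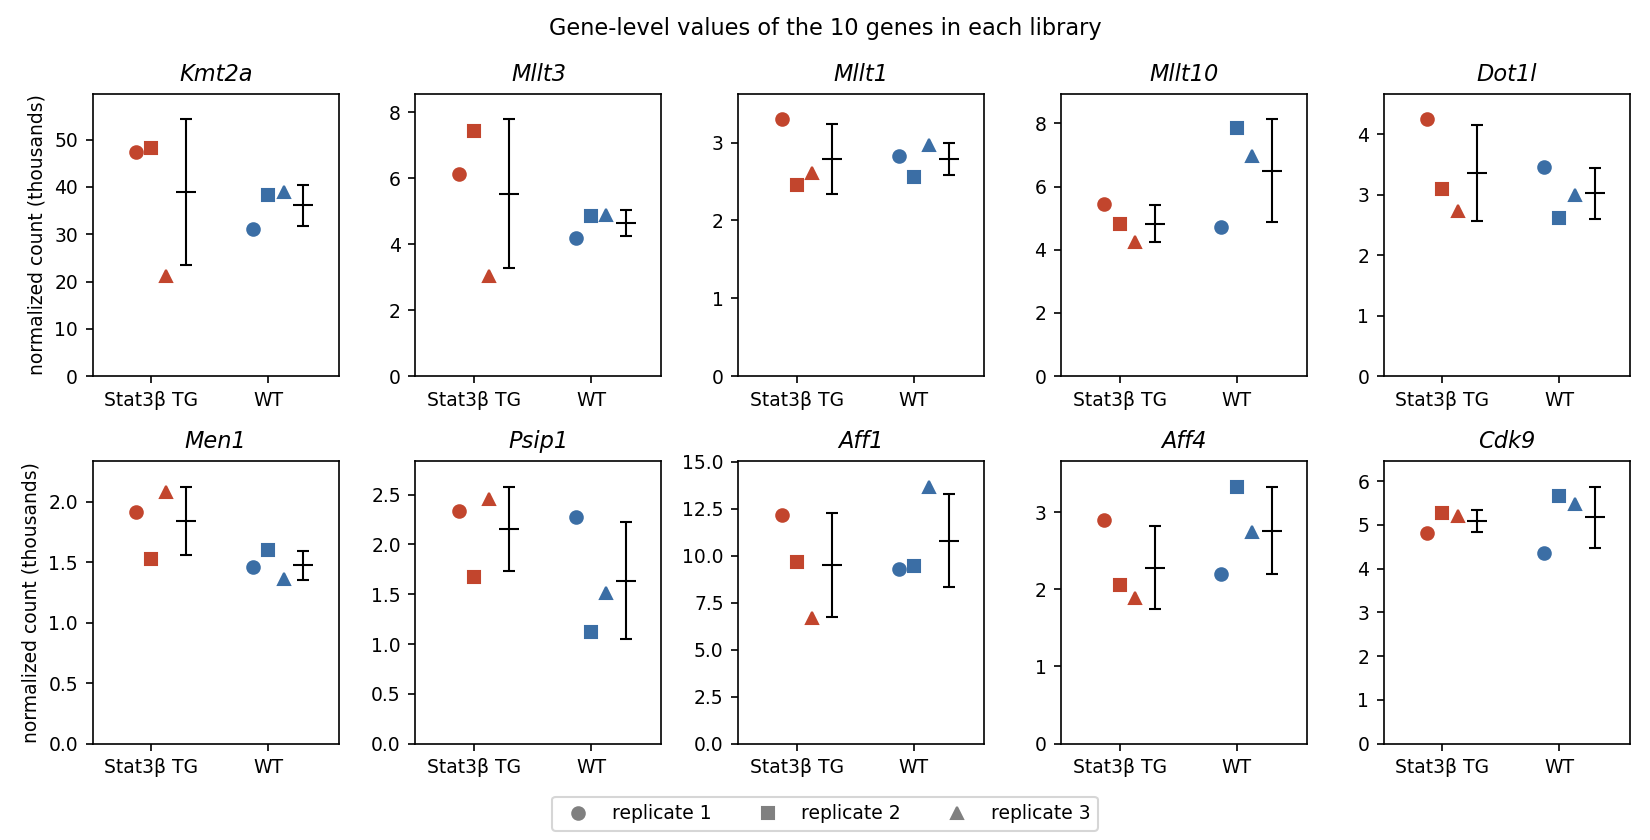
Normalized counts (in units of 1000, vertical axis from 0) of the 10 genes in each Stat3β TG (red) and WT (blue) library, with the marker shape giving the replicate number and the black bar the mean ± SD of 3 libraries. The groups overlap in every panel, and Kmt2a and Mllt3 spread widely in Stat3β TG.

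Kmt2a (Entrez 214162; chromosome 9, 44803355 to 44881352, minus strand, GRCm38) had 47487, 48141 and 21170 normalized counts in Stat3β TG 1 to 3, against 31196, 38318 and 38943 in WT 1 to 3. The 3 WT libraries lay inside the range of the Stat3β TG libraries, in which Stat3β TG 3 was far below the other two. The means were 38933 ± 15386 in Stat3β TG and 36152 ± 4304 in WT (SD, n = 3 each). The log2 fold change was 0.02 with a 95% interval of -0.72 to 0.76 (limma, adjusted p = 0.986). Without Stat3β TG 3 it was 0.41. The retroviral fusion carries MLL and AF9 sequence, and a gene-level value cannot tell any of its reads that aligned here from those of the mouse genes. The labels do not give the species or extent of the fusion cDNA.

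AF9 reads acylated histone H3 through its YEATS domain. Its gene Mllt3 (Entrez 70122; chromosome 4, 87769925 to 88033407, minus strand) had 6142, 7433 and 3038 normalized counts in Stat3β TG 1 to 3, against 4206, 4875 and 4897 in WT 1 to 3. The same 3 Stat3β TG libraries enclosed the WT libraries again, with Stat3β TG 3 lowest. The means were 5538 ± 2259 in Stat3β TG and 4659 ± 392 in WT (SD, n = 3 each). The log2 fold change was 0.16 with a 95% interval of -0.56 to 0.88 (limma, adjusted p = 0.868), and it was 0.54 without Stat3β TG 3 and -0.11 without Stat3β TG 2.

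Kmt2a and Mllt3 followed each other over the 6 libraries. From lowest to highest both ran in the order Stat3β TG 3, WT 1, WT 2, WT 3, Stat3β TG 1, Stat3β TG 2. On log2 values Pearson's r was 0.97 (exact permutation p = 0.00139, adjusted p = 0.0625 over 45 pairs of the 10 genes) and Spearman's rho was 1 (exact permutation p = 0.00278, adjusted p = 0.125). The Pearson p is the smallest that 6 libraries allow, and a pair alone at that p cannot pass the adjustment over 45. Without Stat3β TG 2 and Stat3β TG 3, the libraries farthest from the Kmt2a median, r was 0.99 over the remaining 4. Without WT 2 and WT 3 it was 0.98, and with each value centred on its group's mean it was 0.98. The ratio of Kmt2a to Mllt3 normalized counts was 7.73, 6.48 and 6.97 in Stat3β TG 1 to 3, against 7.42, 7.86 and 7.95 in WT 1 to 3, so that it varied 1.23-fold while Kmt2a itself varied 2.27-fold. The ratio averaged 7.06 ± 0.632 in Stat3β TG and 7.74 ± 0.287 in WT (SD, n = 3 each; exact two-sided permutation p = 0.2, with 0.1 the smallest that 3 against 3 allows). Any reads of the fusion that aligned to these genes are in both values, and their part in this covariation was not tested.

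**Figure D2:**
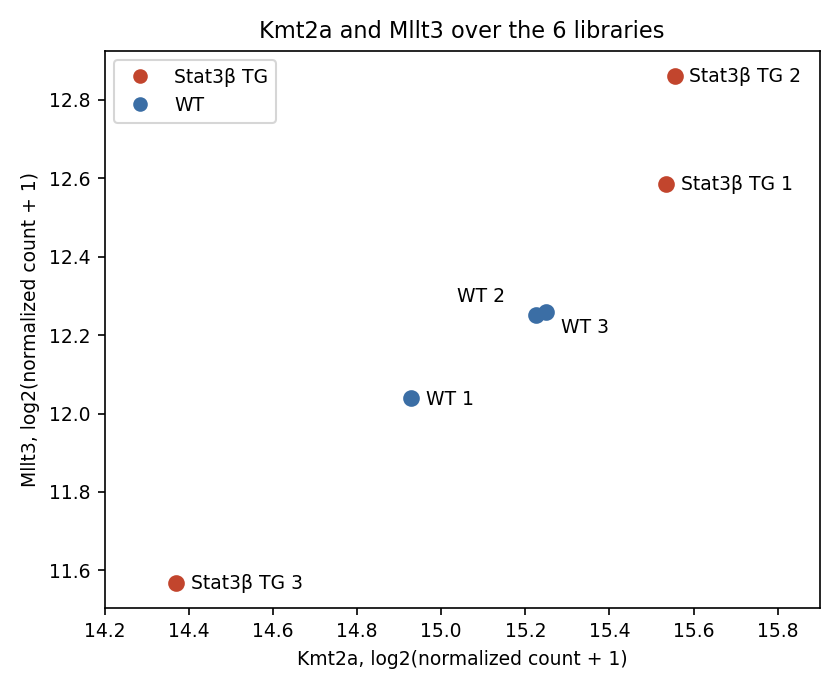
Log2(normalized count + 1) of Mllt3 (vertical) against Kmt2a (horizontal) in the 6 libraries, Stat3β TG in red and WT in blue. The points lie along a rising line (r = 0.97), with Stat3β TG 3 at its low end, Stat3β TG 1 and Stat3β TG 2 at its high end and the WT libraries between.

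Among all other genes tested, Mllt3 ranked 5 of 12641 by its Pearson r with Kmt2a, and Kmt2a ranked 7 of 12641 by its r with Mllt3. The 3 genes most like Kmt2a were Meis1, a homeobox partner of HOX proteins (r = 0.98), Phospho1, a phosphatase gene with no more than 38.2 normalized counts (r = 0.97), and Kdm6b, an H3K27 demethylase (r = 0.97). Meis1 had 3878, 4417 and 2586 normalized counts in Stat3β TG 1 to 3, against 3275, 3705 and 3791 in WT 1 to 3. Kdm6b had 6054, 5818 and 2361 in Stat3β TG 1 to 3, against 3600, 4003 and 3946 in WT 1 to 3. Like Kmt2a, both were lowest in Stat3β TG 3. Hoxa9, a gene of the HOXA cluster, did not share this pattern. It had 7444, 8848 and 8482 in Stat3β TG 1 to 3, against 7694, 9288 and 7147 in WT 1 to 3, and was lowest in WT 3. The 3 genes most like Mllt3 were Selenon, a selenoprotein of the endoplasmic reticulum (r = 0.98), Mfsd8, a lysosomal membrane protein (r = 0.98), and Kdm6b again (r = 0.97). These ranks are descriptions over 6 libraries that differ in depth and share 1 normalization.

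The other pairs were less alike. Of the 45 pairs, 30 had r above 0 and 15 below, and the median r was 0.12. The shares over pairs of all genes tested were not counted. No pair passed the adjustment, and 3 had an exact unadjusted p under 0.05 (Kmt2a with Mllt3, Mllt10 with Aff4, and Mllt10 with Psip1). For Mllt10 and Aff4 Pearson's r was 0.90 (exact permutation p = 0.0139, adjusted p = 0.312) and Spearman's rho 0.89 (exact permutation p = 0.0333, adjusted p = 0.661). Aff4 ranked 700 of 12641 other genes tested by its r with Mllt10. Without WT 2 and WT 3 r was 0.94 for Mllt10 and Aff4. Over those remaining libraries r was also 0.99 for Mllt10 with Aff1 and 0.95 for Mllt10 with Dot1l, but -0.28 for Mllt10 with Cdk9. The value of 0.94 was thus not particular to Mllt10 and Aff4. For Mllt10 and Psip1 Pearson's r was -0.86 (exact permutation p = 0.0278, adjusted p = 0.417) and Spearman's rho -0.83 (exact permutation p = 0.0583, adjusted p = 0.661). That relation rested on WT 2 and WT 3, the libraries farthest from the Mllt10 median, without which r was -0.14. Ranked from the highest r with Mllt10 to the lowest, Psip1 was 11431 of 12641.

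**Figure D3:**
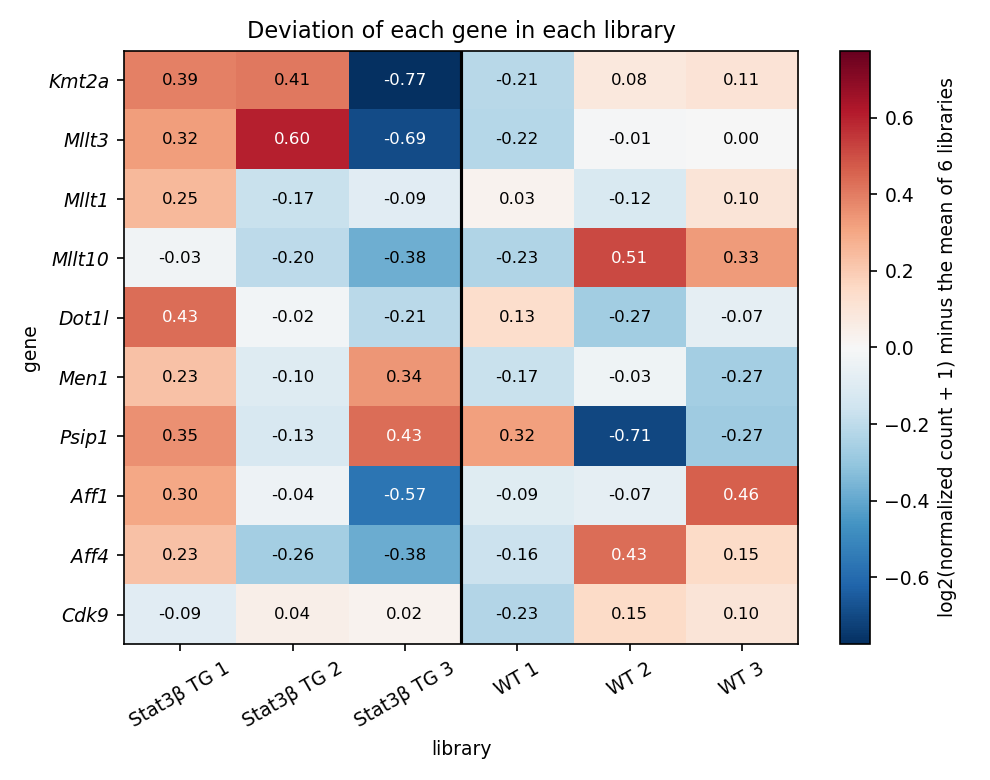
Log2(normalized count + 1) of each gene in each library minus that gene's mean over 6 libraries, red above and blue below, with Stat3β TG left of the line and WT right of it. The Kmt2a and Mllt3 rows are alike, and WT 2 and WT 3 stand out for Mllt10 and Psip1. Stat3β TG 3 is lowest for Kmt2a, Mllt3, Mllt10, Aff1 and Aff4 and highest for Men1 and Psip1. The shares of all genes lowest or highest there were not counted.

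Stat3β TG 3, the deepest library, held the lowest value of Kmt2a, Mllt3, Mllt10, Aff1 and Aff4 and the highest of Men1 and Psip1. The shares of all genes tested that were lowest or highest there were not counted, so this cannot be read as a trait of these genes. Over the 2099 tested genes with at least 8000 exon bases the median deviation from the mean of the 6 libraries was 0.11, -0.07 and -0.10 (log2) in Stat3β TG 1 to 3 and -0.03, 0.09 and 0.04 in WT 1 to 3. The deviations of Kmt2a, with 16670 exon bases, were 0.39, 0.41 and -0.77 in Stat3β TG 1 to 3 and -0.21, 0.08 and 0.11 in WT 1 to 3. Both were lowest in Stat3β TG 3. Kmt2a was highest in Stat3β TG 2 and the median of the long genes in Stat3β TG 1. The part of transcript length in the Kmt2a values was not tested.

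Mllt1 encodes ENL, the close relative of AF9, which can take AF9's place in the DOT1L and super elongation complexes. The gene (chromosome 17, 56892608 to 56935509, minus strand) had 3300, 2460 and 2607 normalized counts in Stat3β TG 1 to 3, against 2830, 2561 and 2975 in WT 1 to 3. The WT libraries lay inside the Stat3β TG range, with means of 2789 ± 449 in Stat3β TG and 2789 ± 209.8 in WT (SD, n = 3 each). The log2 fold change was -0.009 with a 95% interval of -0.38 to 0.36 (limma, adjusted p = 0.987). Pearson's r of Mllt3 with Mllt1 was 0.10 and Spearman's rho -0.03 over the 6 libraries (exact permutation p = 0.867 and p = 1, each with an adjusted p of at least 0.911).

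In the DOT1L complex, Mllt10 (AF10, which binds DOT1L and stimulates it) had the lowest fold change of the 10 genes. The gene (chromosome 2, 18055160 to 18212390, plus strand) had 5435, 4809 and 4248 normalized counts in Stat3β TG 1 to 3, against 4710, 7866 and 6956 in WT 1 to 3. WT 1 lay inside the Stat3β TG range, and WT 2 and WT 3 lay above it. On the log2 scale the fold change was -0.40 with a 95% interval of -0.90 to 0.09 (limma, adjusted p = 0.668). Leaving out WT 1 gave -0.62 (limma, adjusted p = 0.0721), and leaving out both WT 2 and WT 3 gave 0.029. Of its exon bases, 12.7% overlap Dnajc1 on the opposite strand, and the sources used here do not give how strand was handled in counting. Dot1l itself, on chromosome 10 at 80755101 to 80795461, plus strand, had 4245, 3092 and 2723 normalized counts in Stat3β TG 1 to 3, against 3450, 2610 and 2997 in WT 1 to 3. The ranges overlapped, with the highest value in Stat3β TG 1 and the lowest in WT 2. Its fold change was 0.14 on the log2 scale, with a 95% interval of -0.33 to 0.60 (limma, adjusted p = 0.817).

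The genes of the proteins that tether MLL to chromatin had the most positive log2 fold changes of the 10, and neither passed. Men1 encodes menin, which binds the N-terminus of MLL. The gene (chromosome 19, 6334979 to 6340894, plus strand) had 1921, 1528 and 2079 normalized counts in Stat3β TG 1 to 3, against 1458, 1604 and 1365 in WT 1 to 3. Stat3β TG 1 and Stat3β TG 3 were above all WT libraries, and Stat3β TG 2 lay below WT 2. The log2 fold change was 0.31 with a 95% interval of -0.08 to 0.70 (limma, adjusted p = 0.668), and it stayed above 0 with each library left out, between 0.22 and 0.44. Psip1 encodes LEDGF, which reads methylated H3K36 and binds MLL with menin. The gene (chromosome 4, 83455680 to 83486463, minus strand) had 2335, 1672 and 2460 normalized counts in Stat3β TG 1 to 3, against 2279, 1120 and 1511 in WT 1 to 3. WT 1 lay among the Stat3β TG libraries, and WT 2 and WT 3 lay below all the others. For Psip1 the log2 fold change was 0.44 with a 95% interval of -0.20 to 1.08 (limma, adjusted p = 0.673). Leaving out WT 1 gave 0.71 (limma, adjusted p = 0.105), and leaving out both WT 2 and WT 3 gave -0.10. Psip1 shares 9.50% of its exon bases with Snapc3 on the opposite strand.

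In the super elongation complex, Aff1 and Aff4 encode AF4-family scaffolds and Cdk9 the kinase of P-TEFb. Aff1, on chromosome 5 at 103692362 to 103855322, plus strand, had 12191, 9658 and 6700 normalized counts in Stat3β TG 1 to 3, against 9300, 9462 and 13682 in WT 1 to 3. The groups overlapped broadly, with the lowest value in Stat3β TG 3 and the highest in WT 3. Its log2 fold change was -0.20 with a 95% interval of -0.79 to 0.38 (limma, adjusted p = 0.790). Aff4, on chromosome 11 at 53350640 to 53421830, plus strand, had 2894, 2059 and 1893 in Stat3β TG 1 to 3, against 2204, 3329 and 2737 in WT 1 to 3. Stat3β TG 1 lay above WT 1 and WT 3 and below WT 2. Aff4 had a log2 fold change of -0.28 with a 95% interval of -0.79 to 0.23 (limma, adjusted p = 0.691), and 0.025 when both WT 2 and WT 3 were left out. Cdk9, on chromosome 2 at 32705782 to 32712784, minus strand, varied least of the 10, with a coefficient of variation of 9.21% over the 6 libraries, against 27.2% for Kmt2a and a median of 21.8% over all genes tested. It had 4812, 5271 and 5202 normalized counts in Stat3β TG 1 to 3, against 4369, 5671 and 5477 in WT 1 to 3. The Stat3β TG libraries all lay inside the WT range. Its log2 fold change was -0.01 with a 95% interval of -0.36 to 0.33 (limma, adjusted p = 0.978).

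**Figure D4:**
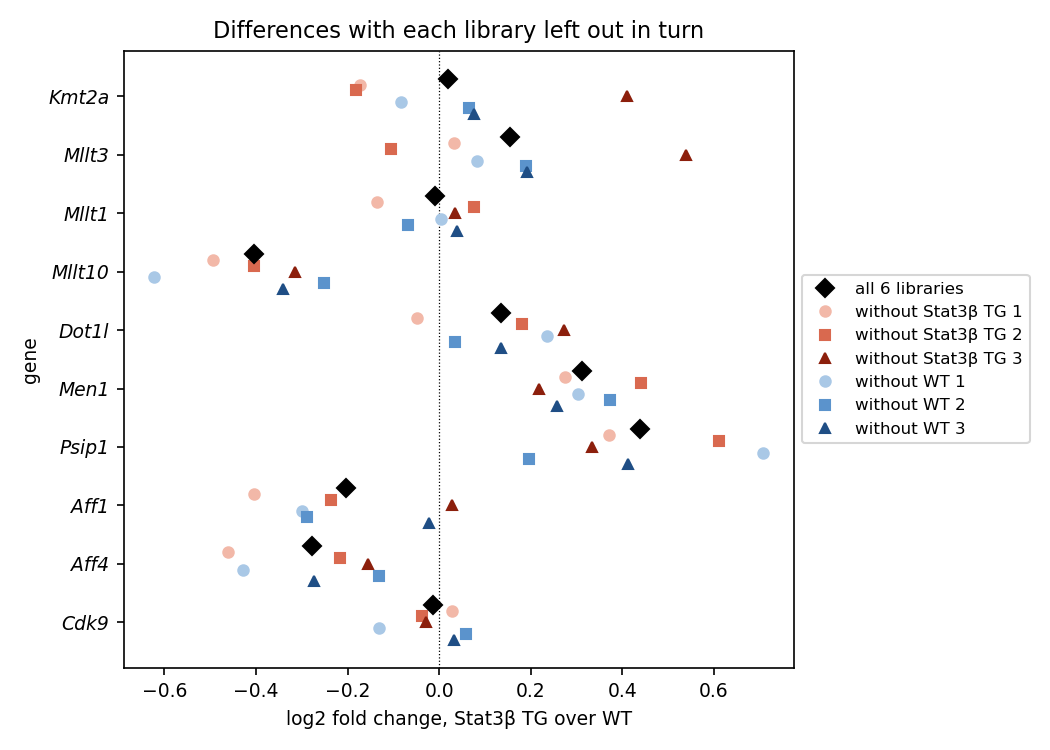
Log2 ratio of Stat3β TG to WT levels (horizontal) for each of the 10 genes with all 6 libraries (black diamonds) and with each library left out (red shades for Stat3β TG, blue shades for WT). With 1 library left out, Men1 and Psip1 stay above 0 and Mllt10 and Aff4 below 0, and Kmt2a and Mllt3 move furthest up without Stat3β TG 3.

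The libraries apart on the first component, WT 2 and WT 3, both lay above the other 4 libraries in 2 of the 10 genes (Mllt10 and Cdk9), against 20.5% of all genes tested. They both lay below in 1 of the 10 (Psip1), against 21.9%. These shares are near or below the background. Without WT 1 limma passed 0 of the 10 genes, against 2.74% of all genes, with 2 of the 10 at an unadjusted p under 0.05, against 27%. Without WT 2 it passed 0 of the 10, against 0.0396%, and without both WT 2 and WT 3 again 0, against 0.0712%.

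Levels of different genes were compared per kilobase of exon (normalized counts per 1000 exon bases, GENCODE M21 exon union). Kmt2a was the highest at a mean of 2252, above 95.2% of the 12110 tested genes with a length, and it was the highest of the 10 genes in each library. Its lowest library, at 1270, lay above all libraries of Cdk9 but within the ranges of Aff1, which reached 1447, and Mllt10, which reached 1332. Cdk9 (mean 1113), Aff1 (1075) and Mllt10 (960) followed with overlapping ranges, and Mllt1 (712) overlapped Mllt10. The lowest library of Mllt1, at 628, lay just above the highest of Mllt3, at 619, and above the highest of Men1, at 542. Men1 (mean 433), Mllt3 (425), Psip1 (373) and Dot1l (366) overlapped each other. Aff4 had the lowest mean, 187, and its highest library, WT 2 at 247, was below all libraries of Dot1l but above Psip1 in WT 2, at 220.3. The median over the tested genes was 237. Mllt3 was thus at a lower level per kilobase than its relative Mllt1 on average, and the per-kilobase ratio of Mllt3 to Mllt1 ran from 0.380 to 0.986 over the libraries. Aff1 was above Aff4 in each library, at a per-kilobase ratio of 4.04 to 7.11. These levels treat every exon base alike, and the authors' exon model is not stated in those sources. Any aligned reads of the fusion are included in the levels of Kmt2a and Mllt3.

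The other genes of the same complexes were taken from 10 lists with 72 genes, all of which were tested. The limma test passed 0 of the 72 in either direction, against 0% of all genes, and edgeR and DESeq2 also passed 0. At an unadjusted p under 0.05 limma had 0 higher and 5 lower in Stat3β TG, against 3.56% and 2.54% of all genes, and edgeR and DESeq2 each had 5 in either direction. Of the 72 log2 fold changes 27 were above 0 and 45 below, with a median of -0.09, against 51.4% above 0 and a median of 0.01 over all genes. Groups did not overlap in 6 of the 72, against 10.8% of all genes. WT 2 and WT 3 both lay above the other libraries in 26 of the 72 and both below in 11, against 20.5% and 21.9% of all genes. Without both of them the median was 0.05, and without WT 1 it was -0.14.

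Those 5 genes were Hcfc1, Kdm6a, Eaf1, Iws1 and Tet1. Hcfc1 encodes a subunit that MLL-family complexes share with other chromatin regulators. It had 15030, 12592 and 10683 normalized counts in Stat3β TG 1 to 3, against 13808, 21575 and 20808 in WT 1 to 3 (log2 fold change -0.54, limma adjusted p = 0.668), with WT 1 inside the Stat3β TG range. Kdm6a, an X-linked H3K27 demethylase found in complexes of the MLL relatives, had 2177, 1934 and 1770 in Stat3β TG 1 to 3, against 3201, 2910 and 4103 in WT 1 to 3 (log2 fold change -0.79, limma adjusted p = 0.668). The groups did not overlap in Kdm6a, and among the WT libraries WT 2, the one of the male pattern, was lowest. The part of sex in this difference was not tested, and 1 such WT library cannot separate it from group. Eaf1, a partner of the ELL elongation factors, had 3490, 3523 and 3343 in Stat3β TG 1 to 3, against 3567, 5587 and 5695 in WT 1 to 3 (log2 fold change -0.49, limma adjusted p = 0.668). Iws1, an elongation factor that binds SPT6, had 2359, 2121 and 2275 in Stat3β TG 1 to 3, against 2798, 3973 and 3277 in WT 1 to 3 (log2 fold change -0.56, limma adjusted p = 0.668). In Eaf1 and Iws1 WT 1 lay nearest to Stat3β TG. Tet1, a 5-methylcytosine dioxygenase and a known fusion partner of MLL, was low, with 50.9, 32.0 and 85.4 in Stat3β TG 1 to 3, against 136, 116 and 146 in WT 1 to 3 (log2 fold change -1.33, limma adjusted p = 0.668), and the groups did not overlap.

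By list, the 8 core subunits and partners of the MLL complex had 4 log2 fold changes above 0 and 4 below. Wdr5, a scaffold of the core, had a log2 fold change of -0.15. The 11 genes of other H3K4 methyltransferases had 3 above and 8 below 0 with a median of -0.14, including Setd1a at -0.43. The 12 other super elongation and P-TEFb genes had 2 above and 10 below 0 with a median of -0.26, including Ccnt1, the cyclin partner of CDK9, at -0.52. WT 2 and WT 3 both lay above the other libraries in 6 of these 12, and without both the median was 0.02. The 7 genes of the 7SK particle, which holds P-TEFb inactive, and of the BET proteins had 2 above and 5 below 0. Among them Brd3, a reader of acetylated histones, was at 0.24. The 6 other DOT1L partners and YEATS proteins had 2 above and 4 below 0, with Mllt6, the relative of Mllt10, at -0.48 and the polycomb gene Cbx8 at 0.34. The 8 PAF1 complex genes and partners had 4 on each side, with the PAF1 subunit Ctr9 at 0.32. The 6 pausing factors had 3 on each side, between Nelfa at -0.17 and Supt4a at 0.22. Of the 3 relatives of Psip1, Hdgf was at -0.18 and Hdgfl3 at -0.20. Jund, which encodes a partner of menin, was at 0.48, and the 10 other fusion partners of MLL had 5 on each side, with Eps15 at 0.30. The lowest limma adjusted p of the 72 was 0.668, and without WT 1 the test passed 2 of the 72, against 2.74% of all genes. They were Eaf1 (limma adjusted p = 0.0473) and Pagr1a, a subunit gene of the MLL relatives chosen here after its values were seen (log2 fold change 0.93, limma adjusted p = 0.0489). Without both WT 2 and WT 3 the log2 fold changes were -0.05 for Eaf1 and -0.07 for Pagr1a.

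**Figure D5:**
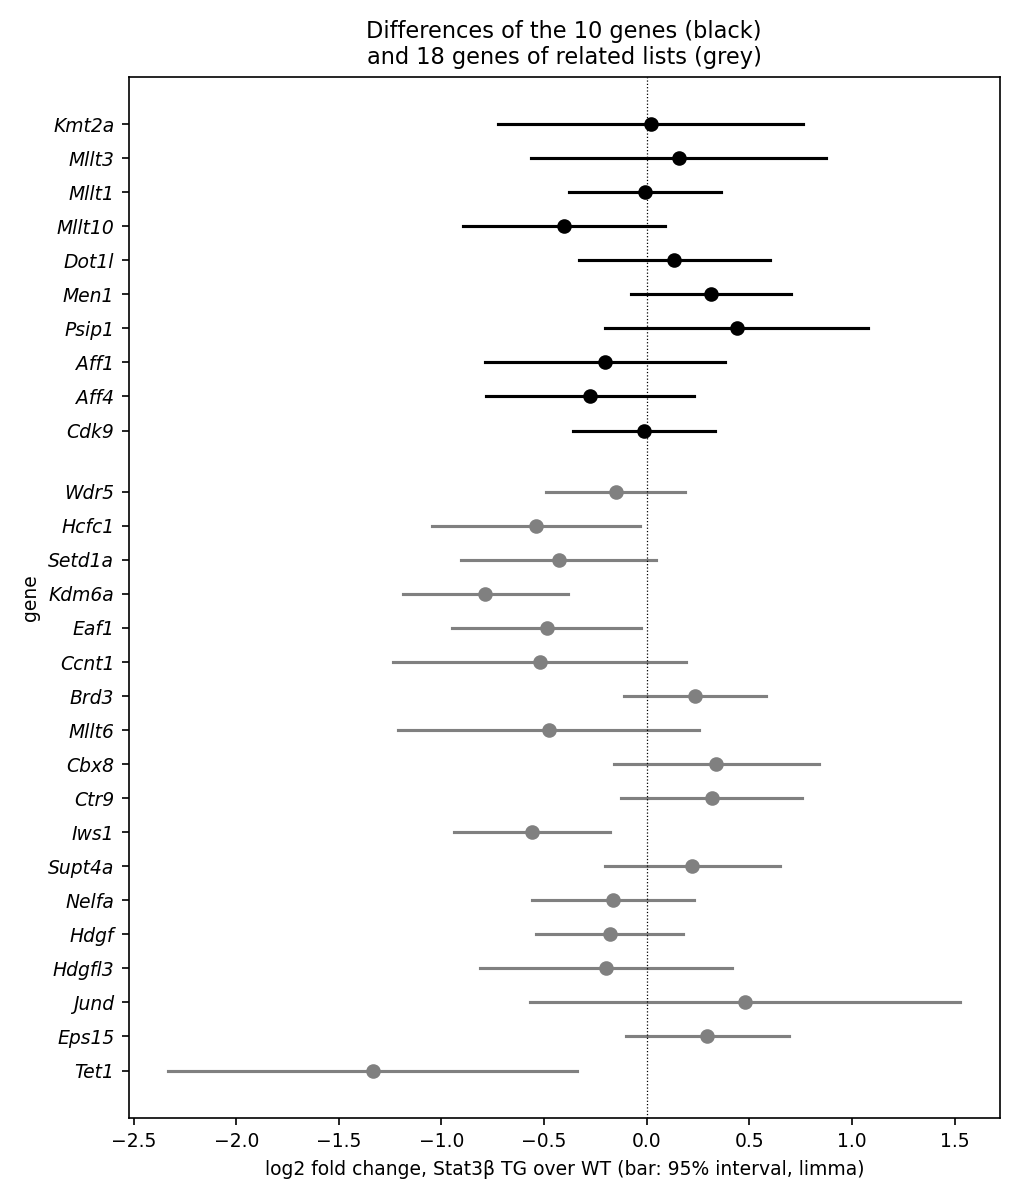
Log2 ratio of Stat3β TG to WT levels (horizontal, points) with the 95% interval from limma (bars) for the 10 genes (black) and for 18 genes of the related lists (grey). The intervals of all 10 genes include 0, and those of Hcfc1, Kdm6a, Eaf1, Iws1 and Tet1 lie below 0 before adjustment.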

How the data were processed

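RNA sequencing had been performed on 3 Stat3β TG and 3 WT libraries, grouped by sample title. FastQC, STAR, DESeq2 and GRCm38 (mm10) are named in the submitters' processing notes. Their versions, the gene counter, strand handling and annotation were not given in the sources used. The deposited values are the authors' normalized counts per Entrez gene ID, a signal of 1 size factor per library: 100% of 146724 values were whole multiples of 1 step per library, within 0.001, so whole reads were recovered (21809788 to 51934498 per library). Of 24454 IDs, 24376 had a symbol in the RefSeq table of GRCm38.p6.

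The members and lists were chosen with earlier results of these data known. Values were analysed as log2(normalized count + 1) with limma 3.58.1 (R 4.3.3; trend, robust, group only), over the 12642 genes with at least 10 normalized counts in at least 3 libraries. The pseudocount understates changes of low genes. Alternatives were other pseudocounts and filters, quantile normalization, edgeR 4.0.16 and DESeq2 1.42.0 on recovered reads, a replicate block and left-out libraries. The correlation without WT 2 and WT 3 and the looks at transcript length and at marker sums without their most abundant gene were chosen after seeing the data. The scripts were tested on simulated data. Named genes were the 10 members, Stat3, from each list the 2 with the smallest p and all with an unadjusted p under 0.05, and the 3 genes most like Kmt2a and Mllt3. A result under this rule is not reported here. No library pair agreed within sampling noise (chi-square per gene of at least 62.3). Each of the 10 genes had at least 827 reads in every library.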

Additional observations from a re-analysis of the deposited data

How the results depend on the processing

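Genes past the threshold numbered 0 by limma (771 before adjustment) and 0 by edgeR (780 before adjustment). The count was 17 by DESeq2 (970 before adjustment), 9 without both WT 2 and WT 3, and between 0 and 346 with 1 library left out (346 without WT 1 and 5 without WT 2). The cause was not tested. The count of the 10 genes past the threshold was 0 under every alternative run, and their adjusted p was at least 0.654 in the 10 settings with all libraries and at least 0.0721 with 1 library left out. Over those 10 settings no log2 fold change of the 10 genes moved by more than 0.09. The count of related genes was 0 to 2 with 1 library left out (2 without WT 1) and 0 in the other settings. The count of correlated pairs was 0 with Pearson's r, Spearman's rho and centred values. The labels do not say whether the replicate numbers pair the samples. Same-numbered libraries deviated from their group means with correlations of 0.14, 0.10 and -0.11, against -0.20 to 0.14 for unlike numbers. With 3 libraries a group these values cannot settle it. With the replicate block limma passed 0 genes (934 at an unadjusted p under 0.05).

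Signs changed for genes with no call. Without both WT 2 and WT 3 the log2 fold change was 0.029 for Mllt10, -0.067 for Dot1l, -0.10 for Psip1, 0.025 for Aff4, 0.22 for Cdk9, 0.051 for Wdr5, 3.1e-05 for Setd1a, 0.076 for Ccnt1, 0.028 for Mllt6, 0.12 for Nelfa, 0.40 for Hdgfl3, 0.25 for Stat3, 0.11 for Meis1 and 0.13 for Phospho1. That fit leaves 1 WT library, which is assumed to vary like the others. Under quantile normalization it was 0.0027 for Cdk9 and -0.050 for Mfsd8. For Meis1 it was 0.0070 by edgeR with TMM, 0.0067 by edgeR with DESeq2 size factors and 0.0067 by DESeq2. With 1 library left out it ranged from -0.18 to 0.41 for Kmt2a, -0.11 to 0.54 for Mllt3, -0.14 to 0.076 for Mllt1, -0.048 to 0.27 for Dot1l, -0.40 to 0.029 for Aff1, -0.13 to 0.058 for Cdk9, -0.47 to 0.034 for Stat3, -0.18 to 0.21 for Meis1, -0.60 to 0.43 for Phospho1, -0.053 to 0.63 for Kdm6b, -0.0051 to 0.60 for Selenon and -0.092 to 0.15 for Mfsd8. The intervals were computed from the spread between libraries, with 3 libraries a group. The part of depth in that spread was not tested.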
